A study of Mus musculus with 8 samples.

Results

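The genes described here are the collagens and other genes of the stromal extracellular matrix, in thymic lymphomas of mice that lack p53. The members are every symbol of the form Col, number, a, number in the expression table (19 collagens) together with a list of 32 matrix, matrix-modifying and mesenchymal genes, all of which the table holds. This gives 51 genes of 13681 symbols. One of them, Col16a1, did not reach the level required for testing (at least 1 FPKM in at least 2 libraries), which leaves 50 of the 12921 genes tested. FPKM is a transcript level per kilobase of transcript, scaled to the size of the library. The rule uses gene names and no measured value.

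RNA was sequenced in 8 libraries from thymic lymphomas of C57BL/6 mice at an age of 10 weeks. The 3 libraries labelled ΔNp73Δ/Δ;p53-/- and the 3 labelled ΔNp63Δ/Δ;p53-/- come from tumours injected with an adenovirus that carries Cre recombinase and mCherry (Ad-CRE-mCherry). The 2 control libraries, labelled ΔNfl/fl;p53-/-, come from tumours injected with mCherry virus without Cre (Ad-mCherry). Tissue was taken 48 hours after injection. p63 and p73 belong to the p53 family of transcription factors, and their ΔN forms start at an internal promoter and so have no full transactivation domain. The p53 deficiency is common to all 3 groups. Virus and genotype changed together between the controls and the other groups, so a deletion and the Cre virus itself cannot be told apart in a comparison with control. Which gene carries the floxed ΔN allele is not in the control label. The virus was given locally, and the share of tumour cells it reached is not in the labels. The labels do not state that each library is its own animal, and the p-values therefore measure only the spread between these samples, which may be technical. Groups are called by their labels, and libraries are listed in the order replicate 1, 2, 3.

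Connective tissue cells such as fibroblasts and pericytes secrete procollagen chains that assemble into triple helices in the endoplasmic reticulum, are trimmed outside the cell and are cross-linked into fibrils by lysyl oxidases. Glycoproteins, small proteoglycans and matricellular proteins organise these fibrils, and metalloproteinases and their tissue inhibitors (TIMPs) set the rate at which the matrix is broken down. In the thymus such matrix lies mainly in the capsule, in the septa and around vessels, while thymocytes make little of it.

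The RefSeq windows of 250 bases upstream of the transcription start are shown for 3 members on which the results turn: Col1a2, the member called with all libraries, Col3a1, the most abundant collagen, and Timp1, the member with the largest log2 difference. They are given 5′ to 3′ on the plus strand in the build GRCm38.p6 (the expression table itself was made on mm9, per the labels). Both strands were searched. Capitals mark the short motif CCAAT, which reads as ATTGG from the other strand, and the motif TATAAA, which reads as TTTATA from the other strand. Motif positions are counted back from the start.
Col1a2, chr6:4505368-4505617: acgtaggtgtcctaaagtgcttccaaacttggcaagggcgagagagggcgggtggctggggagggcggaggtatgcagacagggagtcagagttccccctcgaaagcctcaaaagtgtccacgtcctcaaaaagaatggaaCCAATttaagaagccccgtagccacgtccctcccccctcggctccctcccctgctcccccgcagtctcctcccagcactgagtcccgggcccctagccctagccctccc
Col3a1, chr1:45311288-45311537: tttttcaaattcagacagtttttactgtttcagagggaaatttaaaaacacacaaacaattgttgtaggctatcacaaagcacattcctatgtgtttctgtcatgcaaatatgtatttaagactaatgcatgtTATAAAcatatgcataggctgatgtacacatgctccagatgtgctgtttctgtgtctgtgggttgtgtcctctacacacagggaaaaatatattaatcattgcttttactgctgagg
Timp1, chrX:20869916-20870165: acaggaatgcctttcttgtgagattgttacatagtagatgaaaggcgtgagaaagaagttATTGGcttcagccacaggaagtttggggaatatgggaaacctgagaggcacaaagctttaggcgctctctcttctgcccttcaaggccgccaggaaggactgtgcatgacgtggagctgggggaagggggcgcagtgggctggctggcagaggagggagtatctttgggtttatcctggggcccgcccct
The Col1a2 window holds CCAAT 109 bases before the start. That of Col3a1 holds TATAAA at 117 bases. The Timp1 window holds ATTGG at 190 bases. Of the 51 members, 35 matched a window by symbol or by a synonym, with 40 windows in all, and the other 16 matched none. CCAAT on either strand was in 12 of the 40 windows (30.0%), against 33.8% of all 32851 windows of that length. TATAAA was in 9 of 40 (22.5%), against 12.4% of all windows. The sequence TGAGTCA, which reads as TGACTCA from the other strand, was in 2 of 40 (5.0%), against 4.46% of all windows. These letters are matches in a window and say nothing of a factor's binding.

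The deposited values are quantile-normalised FPKM with no read counts, so the depth of the libraries is unknown and no counting interval can be given. One library stood apart. The median Pearson correlation of ΔNp63 replicate 2 with the other libraries, across genes, was 0.848, and that of the other 7 libraries was 0.915 to 0.957 (genes are not independent replicates). The summed level of 9 thymic epithelial markers was 73.2 FPKM in that library, against 614.8 to 945.4 FPKM in the other 7. The summed level of 12 thymocyte markers was 1770 to 2967 FPKM in ΔNp73-labelled, 1537 to 3464 in ΔNp63-labelled and 3804 to 4355 in control tumours, so thymocyte markers were present in all 8 libraries. Rag2, which immature thymocytes need to recombine antigen receptor genes, was at 1.99 FPKM in ΔNp63 replicate 2 and at 20.5 to 72.3 FPKM in the other 7. The thymocyte markers did not move together in that library. Rag1 and Ptcra were also lowest there, and Lck, at 136.7 FPKM, lay within the range of the others. Dntt was highest there, at 350.7 FPKM against 72.1 to 307.5 FPKM in the other 7. These genes were named after their values were seen. Of 4 transcript entries of the targeted gene Trp63, that with the highest mean ranged from 6.38 to 13.8 FPKM in ΔNp73-labelled, 1.05 to 9.91 in ΔNp63-labelled and 3.38 to 5.21 in control libraries. Since the deleted exons are not named in the labels, these levels do not check the deletion, and Trp73 was not analysed here. Because all groups share 1 estimate of spread in the main model, results are given with all 8 libraries and without ΔNp63 replicate 2.

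Matrix genes were higher in the ΔNp73-labelled tumours than in the controls almost throughout. In 47 of the 50 tested members, every ΔNp73-labelled library lay above both controls (27.7% of all genes tested did so, and 27.9% of those tested without ΔNp63 replicate 2, where the count was again 47). Col27a1 lay below both controls in every ΔNp73-labelled library (35.7% of all genes did so), and Col14a1 and Fap overlapped. The median log2 fold change (log2FC) of the members was 1.25, against -0.07 over all genes tested. The ΔNp63-labelled tumours lay between the other groups: 24 members were above both controls in all 3 libraries (12.6% of all genes), and the median log2FC was 0.54, against -0.02 over all genes. With ΔNp63 replicate 2 left out, 43 members lay above both controls (31.9% of all genes), Col27a1 and Fbln1 lay below them (37.1%), and the median was 0.79. In bulk tissue, more matrix-producing cells and more matrix RNA per cell cannot be told apart.

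**Figure D1:**
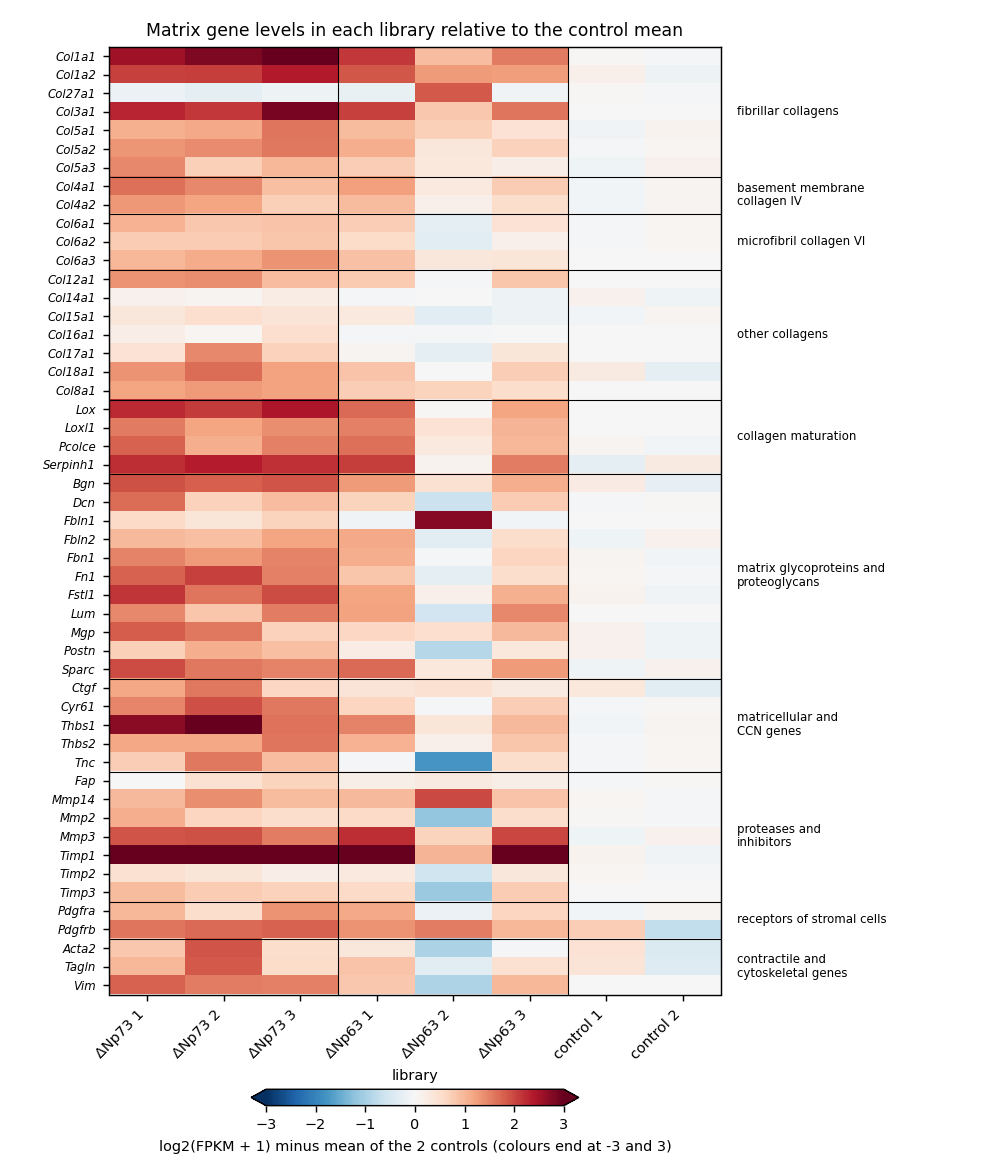
Level of all 51 matrix genes (rows, grouped by role) in each of the 8 libraries (columns), as log2(FPKM + 1) minus the mean of the 2 controls; red is above and blue below the control mean, and colours end 3 log2 units from it. The 3 ΔNp73-labelled columns are red in nearly every row, ΔNp63 replicates 1 and 3 are paler, and ΔNp63 replicate 2 goes both ways, with Fbln1, Mmp14 and Col27a1 the most red and Tnc the most blue.

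Tests were run with limma on log2(FPKM + 1), with Benjamini-Hochberg adjustment over all genes tested. With all 8 libraries, 1 member rose past an adjusted p of 0.05 in ΔNp73-labelled tumours against control, Col1a2, and 0 fell (0.0464% of all genes rose and 0.00774% fell). Before adjustment, p was under 0.05 for 39 higher members (11.4% of all genes) and 0 lower ones (9.83%). Against control, 0 members passed in ΔNp63-labelled tumours (0.031% of all genes rose and 0.0619% fell), with 19 higher at an unadjusted p under 0.05 (5.96%) and 0 lower (7.03%). Without ΔNp63 replicate 2, 43 members rose in ΔNp73-labelled tumours against control (16.8% of all genes) and 0 fell (16.1%), while 27 rose in ΔNp63-labelled tumours (11.7%) and 0 fell (10.8%). A model of the ΔNp73-labelled and control libraries alone, which contains no ΔNp63-labelled library, also called 43 members higher (15.9% of all genes), of which 42 were the same genes. Models of 2 groups that include ΔNp63 replicate 2 called 0 members higher, both for ΔNp63-labelled against control (0.0238% of all genes) and for ΔNp73-labelled against ΔNp63-labelled tumours (0.0316%). The median SE of a member's log2FC against control was 0.33 with all libraries and, without ΔNp63 replicate 2, 0.18 for the ΔNp73-labelled group.

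Among the collagens, the fibril-forming chains had the largest median difference, with a log2FC of 1.44 in ΔNp73-labelled and 0.71 in ΔNp63-labelled tumours against control. Col1a1, which encodes the more abundant chain of type I collagen, measured 30.9, 37.0 and 50.3 FPKM in the ΔNp73-labelled libraries, 22.8, 9.30 and 15.1 FPKM in the ΔNp63-labelled libraries and 4.59 and 4.29 FPKM in the controls. Every ΔNp73-labelled value exceeded every ΔNp63-labelled one, and every ΔNp63-labelled value exceeded both controls. The mean level was 8.88-fold that of the controls in ΔNp73-labelled tumours and 3.55-fold in ΔNp63-labelled tumours. The difference of the ΔNp73-labelled group from control narrowly missed the threshold with all libraries (log2FC 2.87, SE 0.35, adjusted p = 0.0597), and it passed without ΔNp63 replicate 2 (adjusted p = 0.000816). For the ΔNp63-labelled group the values were log2FC 1.54, SE 0.35, adjusted p = 0.204 with all libraries and log2FC 1.85, SE 0.26, adjusted p = 0.00423 without that library.

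Col1a2, the partner chain of type I collagen, had 32.5, 33.2 and 41.3 FPKM in the ΔNp73-labelled libraries, 28.2, 18.7 and 18.1 FPKM in the ΔNp63-labelled libraries and 8.01 and 6.23 FPKM in the controls. The 3 groups did not overlap, and ΔNp63 replicate 2 was here close to replicate 3. Col1a2 was the member called with all 8 libraries (log2FC 2.18, SE 0.23, adjusted p = 0.0475 for ΔNp73-labelled against control). This call was lost without either control, without any 1 of the ΔNp73-labelled libraries or without ΔNp63 replicate 3, with adjusted p between 0.0902 and 0.519, and its log2FC stayed between 2.02 and 2.33. In ΔNp63-labelled tumours the difference from control was log2FC 1.46, SE 0.23, adjusted p = 0.131, and 0.00512 was the adjusted p without ΔNp63 replicate 2.

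Col3a1, the chain of type III collagen that forms the reticular fibres of lymphoid organs, was the most abundant collagen and measured 77.1, 68.3 and 114.2 FPKM in the ΔNp73-labelled libraries, 65.5, 26.8 and 47.5 FPKM in the ΔNp63-labelled libraries and 15.1 and 14.9 FPKM in the controls. Again the 3 groups did not overlap, and ΔNp63 replicate 2 was the lowest of its group. Against control, Col3a1 gave log2FC 2.42, SE 0.37, adjusted p = 0.0676 in ΔNp73-labelled and log2FC 1.48, SE 0.37, adjusted p = 0.222 in ΔNp63-labelled tumours. Both passed without ΔNp63 replicate 2, at adjusted p = 0.00111 for the ΔNp73-labelled and 0.00432 for the ΔNp63-labelled group.

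Type V collagen, which nucleates type I fibrils, followed at lower levels. Col5a1 had 3.75, 4.001 and 5.88 FPKM in ΔNp73-labelled, 3.38, 2.71 and 2.06 FPKM in ΔNp63-labelled and 1.12 and 1.44 FPKM in control tumours. Col5a2 had 7.20, 7.69 and 8.80 FPKM in ΔNp73-labelled, 5.95, 3.17 and 4.31 FPKM in ΔNp63-labelled and 2.16 and 2.39 FPKM in control tumours. In both genes the groups were again fully separated, with log2FC of 1.27 and 1.44 for ΔNp73-labelled against control. Both rose in ΔNp73-labelled tumours without ΔNp63 replicate 2 (adjusted p = 0.0062 for Col5a1 and 0.00119 for Col5a2). In ΔNp63-labelled tumours Col5a2 rose in that setting (adjusted p = 0.0102), and Col5a1 did not pass (adjusted p = 0.0823). Col5a3 averaged 2.45 ± 0.902 FPKM in ΔNp73-labelled, 1.19 ± 0.447 in ΔNp63-labelled and 0.634 ± 0.191 in control libraries (SD, n = 3, 3 and 2).

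Col27a1, a fibrillar collagen best known from cartilage, went another way. It measured 1.13, 0.969 and 1.17 FPKM in the ΔNp73-labelled libraries, 1.07, 7.67 and 1.23 FPKM in the ΔNp63-labelled libraries and 1.46 and 1.35 FPKM in the controls. A single library, ΔNp63 replicate 2, was high, and all 7 others lay at or below 1.46 FPKM. The ΔNp73-labelled group gave log2FC -0.20, SE 0.57, adjusted p = 0.856 against control. The ΔNp63-labelled log2FC of 0.51 against control was -0.16 without replicate 2. Of the 7 fibrillar collagen genes, 6 rose in ΔNp73-labelled and 4 in ΔNp63-labelled tumours when that library was left out (16.8% and 11.7% of all genes rose), and 0 fell in either (16.1% and 10.8% of all genes fell).

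The FPKM ratio of Col1a1 to Col1a2 was 0.951, 1.11 and 1.22 in ΔNp73-labelled tumours, 0.808, 0.497 and 0.834 in ΔNp63-labelled tumours and 0.573 and 0.688 in controls. The ΔNp73-labelled tumours therefore had relatively more Col1a1 than every other library, and ΔNp63 replicate 2 had the lowest ratio. For Col4a1 to Col4a2 the ratio was 1.41 to 1.55 in ΔNp73-labelled, 1.37 to 1.50 in ΔNp63-labelled and 1.24 in both control tumours. These ratios were not tested.

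**Figure D2:**
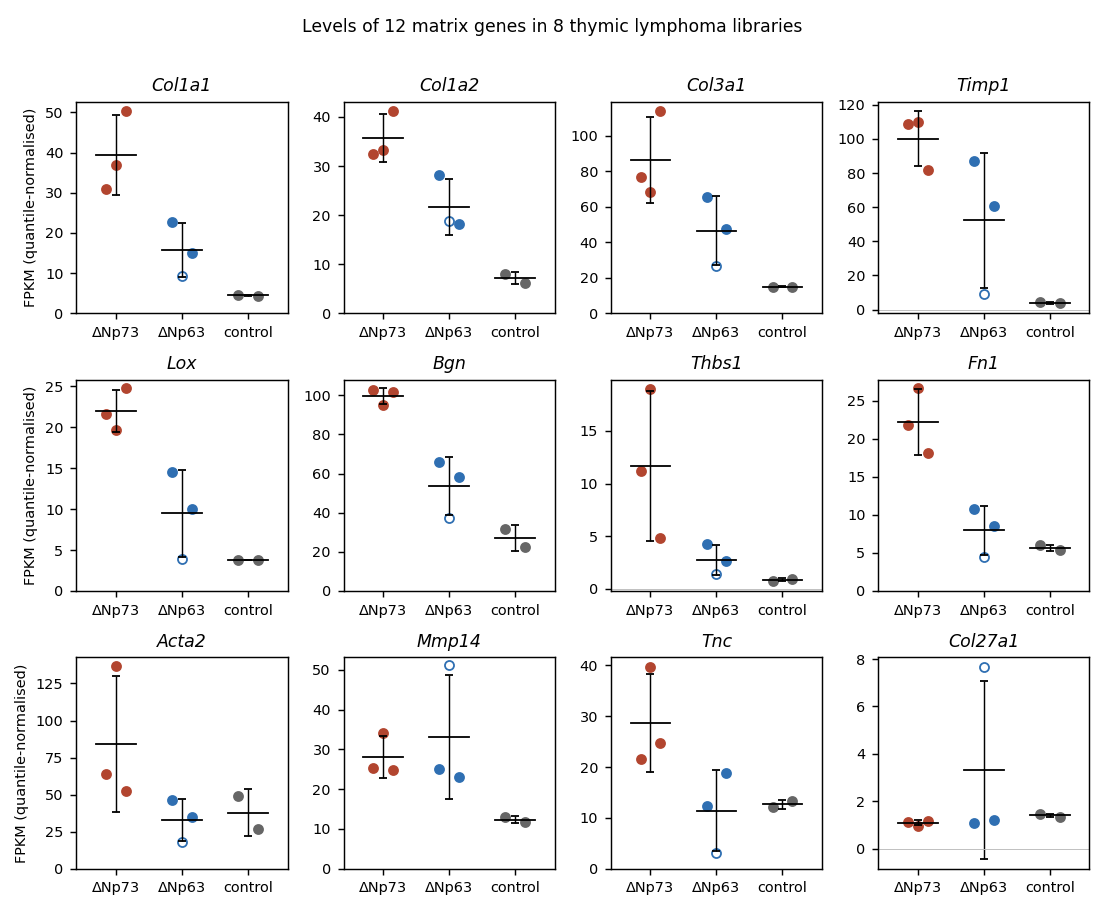
FPKM (vertical axes, linear scale, a separate range in each panel) of 12 matrix genes in the 8 libraries; each point is a library, the long line is the group mean and the bar its SD, and the hollow blue circle is ΔNp63 replicate 2. In Col1a1, Col1a2 and Col3a1 the 3 groups do not overlap, and the hollow circle is lowest of its group in Timp1 (9.10 FPKM) and highest of all in Mmp14 (51.2 FPKM) and Col27a1 (7.67 FPKM).

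The collagen IV chains Col4a1 and Col4a2, which are transcribed from a shared promoter region and form the network of basement membranes, were higher by smaller amounts. Col4a1 measured 19.9, 17.2 and 11.4 FPKM in ΔNp73-labelled, 14.8, 7.14 and 10.4 FPKM in ΔNp63-labelled and 5.27 and 6.13 FPKM in control tumours. Col4a2 measured 12.9, 11.8 and 8.14 FPKM in ΔNp73-labelled, 9.86, 5.22 and 7.11 FPKM in ΔNp63-labelled and 4.26 and 4.95 FPKM in control tumours. All ΔNp73-labelled and all ΔNp63-labelled values exceeded the controls in both genes, and the ranges of the ΔNp73-labelled and ΔNp63-labelled groups overlapped. Against control the ΔNp73-labelled group gave log2FC 1.33, SE 0.32, adjusted p = 0.1 for Col4a1 and log2FC 1.07, SE 0.28, adjusted p = 0.11 for Col4a2. In ΔNp73-labelled tumours both passed without ΔNp63 replicate 2 (adjusted p = 0.00728 and 0.00956), and in ΔNp63-labelled tumours Col4a1 passed (0.0355) and Col4a2 did not (0.0569).

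The 3 chains of collagen VI, which forms beaded microfibrils around cells, had log2FC of 0.78 to 1.16 in ΔNp73-labelled tumours against control. Col6a1 averaged 17.9 ± 1.68 FPKM in ΔNp73-labelled, 11.9 ± 4.36 in ΔNp63-labelled and 9.10 ± 0.599 in control libraries (SD, n = 3, 3 and 2). All 3 chains rose in ΔNp73-labelled tumours without ΔNp63 replicate 2, and Col6a1 rose in ΔNp63-labelled tumours (adjusted p = 0.0267). In that library Col6a1 and Col6a2 were below both controls, at 7.26 and 7.14 FPKM.

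Among the other collagens, Col8a1, a short-chain collagen of vessel walls, had the most even values. It measured 2.12, 2.35 and 2.18 FPKM in the ΔNp73-labelled libraries, 1.27, 1.18 and 0.977 FPKM in the ΔNp63-labelled libraries and 0.354 and 0.391 FPKM in the controls. The groups were fully separated and ΔNp63 replicate 2 lay within its group. Its difference in ΔNp73-labelled tumours was just short of the threshold (log2FC 1.23, SE 0.14, adjusted p = 0.0513), and without ΔNp63 replicate 2 it passed at 0.0012. Its level was low, and its log2FC moved with the pseudocount, to 2.29 at a pseudocount of 0.1 and 0.43 at 5. Col14a1, a fibril-associated collagen, measured 1.46, 1.39 and 1.64 FPKM in ΔNp73-labelled, 1.17, 1.23 and 1.03 FPKM in ΔNp63-labelled and 1.48 and 1.06 FPKM in control tumours. Both ranges overlapped that of the controls, and its log2FC was 0.14 in ΔNp73-labelled and -0.08 in ΔNp63-labelled tumours.

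Col12a1, another fibril-associated collagen, and Col18a1, the basement membrane collagen that is the source of endostatin, had log2FC of 1.22 and 1.41 in ΔNp73-labelled tumours. Without ΔNp63 replicate 2 both rose in ΔNp73-labelled (adjusted p = 0.00229 and 0.00303) and in ΔNp63-labelled tumours (0.0177 and 0.0394). Col15a1, a collagen of the basement membrane zone, and Col17a1, a transmembrane collagen of epithelial hemidesmosomes, did not pass in either group in that setting. Col16a1, the untested member, ranged from 0.513 to 1.04 FPKM in ΔNp73-labelled, 0.383 to 0.463 in ΔNp63-labelled and 0.428 to 0.468 in control libraries.

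Genes for the maturation of collagen had a median log2FC of 1.85 in ΔNp73-labelled tumours against control. Lox, a lysyl oxidase that starts collagen cross-linking, averaged 22.0 ± 2.58 FPKM in ΔNp73-labelled, 9.50 ± 5.31 in ΔNp63-labelled and 3.82 ± 0.00299 in control libraries (SD, n = 3, 3 and 2). The ΔNp63-labelled libraries spread widely: replicate 2, at 3.95 FPKM, was close to the control values of 3.82 in both libraries, and replicates 1 and 3 were at 14.5 and 10.02 FPKM. Serpinh1, the collagen chaperone HSP47, averaged 46.2 ± 3.23 FPKM in ΔNp73-labelled, 25.9 ± 15.5 in ΔNp63-labelled and 9.04 ± 2.52 in control libraries. Loxl1, a lysyl oxidase of elastic fibres, averaged 4.55 ± 0.737 FPKM in ΔNp73-labelled, 3.41 ± 1.62 in ΔNp63-labelled and 1.13 ± 0.0310 in control libraries. Pcolce, which speeds removal of the procollagen C-propeptide, averaged 14.5 ± 3.53 FPKM in ΔNp73-labelled, 10.8 ± 5.39 in ΔNp63-labelled and 4.56 ± 0.482 in control libraries. With all libraries the adjusted p in ΔNp73-labelled tumours was 0.0787 for Lox, 0.0963 for Serpinh1, 0.0942 for Loxl1 and 0.115 for Pcolce. All 4 genes rose in both groups without ΔNp63 replicate 2, with log2FC of 1.37 to 2.25 in ΔNp73-labelled and 1.27 to 1.81 in ΔNp63-labelled tumours.

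All 11 matrix glycoproteins and proteoglycans were higher in every ΔNp73-labelled library than in both controls (27.7% of all genes tested were). Their median log2FC was 1.36, against -0.07 over all genes tested. Bgn, the small proteoglycan biglycan, measured 102.5, 95.1 and 101.7 FPKM in the ΔNp73-labelled libraries, 66.0, 37.1 and 58.2 FPKM in the ΔNp63-labelled libraries and 31.8 and 22.4 FPKM in the controls. The ΔNp73-labelled values lay close to each other and above all others, and the ΔNp63-labelled values all lay above the controls. The ΔNp73-labelled group gave log2FC 1.86, SE 0.26, adjusted p = 0.0653, and log2FC 0.94, SE 0.26, adjusted p = 0.252 was found in the ΔNp63-labelled group. Both passed without ΔNp63 replicate 2 (adjusted p = 0.000823 and 0.00458).

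Sparc, a collagen-binding glycoprotein, had 153.6, 119.4 and 111.8 FPKM in the ΔNp73-labelled libraries, 129.4, 49.1 and 96.4 FPKM in the ΔNp63-labelled libraries and 35.3 and 42.9 FPKM in the controls. It was high in ΔNp73-labelled tumours and in ΔNp63 replicates 1 and 3, and these ranges overlapped. Without ΔNp63 replicate 2, Sparc rose in the ΔNp73-labelled (log2FC 1.68, SE 0.19, adjusted p = 0.00153) and ΔNp63-labelled tumours (log2FC 1.50, SE 0.21, adjusted p = 0.00414). Fn1, which encodes fibronectin, had 21.8, 26.7 and 18.1 FPKM in the ΔNp73-labelled libraries, 10.8, 4.51 and 8.58 FPKM in the ΔNp63-labelled libraries and 5.98 and 5.35 FPKM in the controls. The ΔNp73-labelled values were set apart from all others, and ΔNp63 replicate 2 was below both controls. Fn1 gave log2FC 1.79, SE 0.32, adjusted p = 0.0787 in ΔNp73-labelled tumours and log2FC 0.36, SE 0.32, adjusted p = 0.681 in ΔNp63-labelled tumours, and passed without ΔNp63 replicate 2 at 0.00115 and 0.0439.

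Fstl1, a secreted follistatin-like glycoprotein of mesenchymal cells, measured 42.2, 28.7 and 36.8 FPKM in the ΔNp73-labelled libraries, 21.2, 9.76 and 19.2 FPKM in the ΔNp63-labelled libraries and 9.44 and 8.02 FPKM in the controls. All 3 groups were separated, and its differences passed without ΔNp63 replicate 2 (log2FC 1.91 in ΔNp73-labelled and 1.13 in ΔNp63-labelled tumours, adjusted p = 0.000862 and 0.0071). Mgp, the matrix Gla protein that inhibits calcification, measured 88.3, 75.8 and 40.2 FPKM in the ΔNp73-labelled libraries, 38.0, 35.2 and 48.9 FPKM in the ΔNp63-labelled libraries and 26.7 and 22.5 FPKM in the controls. Its ΔNp73-labelled range was wide and reached into the ΔNp63-labelled range. It passed without ΔNp63 replicate 2 in ΔNp73-labelled (adjusted p = 0.0178) and not in ΔNp63-labelled tumours (0.145).

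Dcn, the proteoglycan decorin, measured 125.0, 63.3 and 73.8 FPKM in the ΔNp73-labelled libraries, 61.4, 24.3 and 66.0 FPKM in the ΔNp63-labelled libraries and 37.7 and 39.4 FPKM in the controls. ΔNp63 replicate 2 was below both controls, and the ΔNp73-labelled range overlapped that of the ΔNp63-labelled tumours. Postn, which encodes periostin, had 23.7, 30.8 and 27.2 FPKM in the ΔNp73-labelled libraries, 16.6, 7.32 and 17.6 FPKM in the ΔNp63-labelled libraries and 15.5 and 12.7 FPKM in the controls. The ΔNp73-labelled values were above all others, while the ΔNp63-labelled values lay on both sides of the controls. Dcn and Postn rose in ΔNp73-labelled tumours without ΔNp63 replicate 2 (adjusted p = 0.0196 and 0.00397), and neither passed in ΔNp63-labelled tumours (0.121 and 0.24). Of the remaining members of this group, Fbn1 (fibrillin of microfibrils), Fbln2 (a fibulin) and Lum (the proteoglycan lumican) had log2FC of 1.42, 1.02 and 1.27 in ΔNp73-labelled tumours and passed in both groups without that library. Fbln1, another fibulin, is named here after its values were seen: it measured 21.9 FPKM in ΔNp63 replicate 2 and at most 4.48 FPKM in the other 7 libraries.

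The matricellular genes, whose products signal to cells rather than bear load, held Thbs1, the member with the second largest ratio of means to control in ΔNp73-labelled tumours. This gene encodes thrombospondin and measured 11.2, 19.0 and 4.79 FPKM in the ΔNp73-labelled libraries, 4.21, 1.39 and 2.62 FPKM in the ΔNp63-labelled libraries and 0.753 and 0.971 FPKM in the controls. Every ΔNp73-labelled value exceeded every ΔNp63-labelled one, and every ΔNp63-labelled value exceeded the controls, but the ΔNp73-labelled libraries differed widely among themselves. The ratio of mean levels to control was 13.5 in ΔNp73-labelled and 3.18 in ΔNp63-labelled tumours. The test gave log2FC 2.59, SE 0.52, adjusted p = 0.0818 for the ΔNp73-labelled group, and without ΔNp63 replicate 2 it passed there (0.00727) and not in the ΔNp63-labelled group (0.13).

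Cyr61, a CCN family gene, measured 10.4, 14.5 and 11.2 FPKM in the ΔNp73-labelled libraries, 5.36, 2.97 and 5.86 FPKM in the ΔNp63-labelled libraries and 2.98 and 3.21 FPKM in the controls. The ΔNp73-labelled values were clear of all others, and ΔNp63 replicate 2 lay at the level of the controls. Against control Cyr61 gave log2FC 1.66, SE 0.26, adjusted p = 0.0676 in ΔNp73-labelled tumours, with an adjusted p of 0.000872 without ΔNp63 replicate 2. Tnc, the gene of tenascin-C, measured 21.6, 39.7 and 24.8 FPKM in the ΔNp73-labelled libraries, 12.3, 3.01 and 18.9 FPKM in the ΔNp63-labelled libraries and 12.1 and 13.3 FPKM in the controls. The ΔNp73-labelled values were again the highest, and ΔNp63 replicate 2 was far below the controls. In ΔNp63-labelled tumours the log2FC of Tnc was -0.43 with all libraries and 0.25 without replicate 2, neither of which passed. Ctgf, the CCN gene of connective tissue growth factor, and Thbs2 had log2FC of 1.12 and 1.31 in ΔNp73-labelled tumours and passed there without ΔNp63 replicate 2. In ΔNp63-labelled tumours Thbs2 passed in that setting (adjusted p = 0.0131) and Ctgf did not (0.509).

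Timp1, an inhibitor of many metalloproteinases, differed most from the controls. It measured 108.8, 110.0 and 81.8 FPKM in the ΔNp73-labelled libraries, 87.0, 9.10 and 60.5 FPKM in the ΔNp63-labelled libraries and 4.31 and 3.64 FPKM in the controls. All but 1 of the 6 libraries given Cre virus were above 60 FPKM, ΔNp63 replicate 2 was at 9.10 FPKM, and both controls were below 5 FPKM. The mean was 25.2-fold that of the controls in ΔNp73-labelled tumours and 13.1-fold in ΔNp63-labelled tumours. With all libraries the wide spread of the ΔNp63-labelled group entered both tests: the ΔNp73-labelled group gave log2FC 4.34, SE 0.81, adjusted p = 0.0787, and log2FC 2.94, SE 0.81, adjusted p = 0.249 was found in the ΔNp63-labelled group. Without replicate 2 the values were log2FC 4.34, SE 0.19, adjusted p = 0.000369 in ΔNp73-labelled and log2FC 3.89, SE 0.21, adjusted p = 0.000491 in ΔNp63-labelled tumours.

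The other inhibitors had smaller differences. Timp2 averaged 30.8 ± 2.84 FPKM in ΔNp73-labelled, 25.4 ± 8.56 in ΔNp63-labelled and 24.1 ± 1.17 in control libraries (SD, n = 3, 3 and 2), and Timp3, the inhibitor bound to the matrix, averaged 27.6 ± 2.73 FPKM in ΔNp73-labelled, 18.9 ± 10.8 in ΔNp63-labelled and 15.3 ± 0.0475 in control libraries. Their log2FC in ΔNp73-labelled tumours was 0.34 and 0.80. The difference between these genes and Timp1 was not tested.

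Mmp3, or stromelysin, measured 5.22, 5.31 and 3.88 FPKM in the ΔNp73-labelled libraries, 6.84, 1.69 and 5.78 FPKM in the ΔNp63-labelled libraries and 0.541 and 0.847 FPKM in the controls. Unlike the other tested members, it was higher in ΔNp63 replicates 1 and 3 than in every ΔNp73-labelled library (15.2% of all genes were), and all 6 libraries given Cre virus exceeded the controls. Against control it gave log2FC 1.77, SE 0.43, adjusted p = 0.104 in ΔNp73-labelled and log2FC 1.63, SE 0.43, adjusted p = 0.236 in ΔNp63-labelled tumours, and passed without ΔNp63 replicate 2 at 0.000892 and 0.00173. Mmp14, a membrane-anchored collagenase that activates pro-MMP2, measured 25.2, 34.3 and 24.7 FPKM in the ΔNp73-labelled libraries, 25.1, 51.2 and 23.1 FPKM in the ΔNp63-labelled libraries and 13.0 and 11.7 FPKM in the controls. All 6 libraries given Cre virus were above the controls, and ΔNp63 replicate 2 was the highest. Without that library Mmp14 rose in both groups (log2FC 1.11, SE 0.15, adjusted p = 0.00295 in ΔNp73-labelled and log2FC 0.91, SE 0.17, adjusted p = 0.0113 in ΔNp63-labelled tumours).

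The ratio of Timp1 to Mmp14 in FPKM was 4.31, 3.21 and 3.31 in ΔNp73-labelled tumours, 3.47, 0.178 and 2.62 in ΔNp63-labelled tumours and 0.332 and 0.311 in the controls. The Timp1 transcript level thus exceeded that of Mmp14 in 5 of the 6 libraries given Cre virus, and it was lower in ΔNp63 replicate 2 and both controls. This ratio was not tested. It compares RNA levels of the entries used and does not measure protein or the inhibition of MMP14. Mmp2, or gelatinase A, had a log2FC of 0.76 in ΔNp73-labelled tumours and passed there without ΔNp63 replicate 2 (adjusted p = 0.0146). Fap, a serine protease of activated fibroblasts, averaged 1.42 ± 0.533 FPKM in ΔNp73-labelled, 1.10 ± 0.0752 in ΔNp63-labelled and 0.824 ± 0.0716 in control libraries (SD, n = 3, 3 and 2) and did not pass with or without ΔNp63 replicate 2.

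The receptors through which platelet-derived growth factor reaches mesenchymal cells were at low levels. Pdgfra averaged 3.33 ± 1.19 FPKM in ΔNp73-labelled, 2.35 ± 1.40 in ΔNp63-labelled and 1.17 ± 0.182 in control libraries (SD, n = 3, 3 and 2), with log2FC of 0.96 in ΔNp73-labelled and 0.54 in ΔNp63-labelled tumours. Pdgfrb has 2 transcript entries, and its values depend on how reads were shared between them. The main entry was near 0 in control replicate 2, where the other entry was at 2.34 FPKM. The sums of both entries were 4.64, 5.68 and 5.82 FPKM in ΔNp73-labelled, 4.60, 3.93 and 3.79 in ΔNp63-labelled and 2.88 and 2.35 in control libraries.

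The contractile and cytoskeletal genes were less even. Acta2, smooth muscle actin of myofibroblasts and vessel walls, measured 63.9, 136.7 and 52.2 FPKM in the ΔNp73-labelled libraries, 46.1, 18.2 and 35.0 FPKM in the ΔNp63-labelled libraries and 48.9 and 26.7 FPKM in the controls. The ΔNp73-labelled values were above all others, the controls differed from each other, and the ΔNp63-labelled range overlapped them. It gave log2FC 1.07, SE 0.52, adjusted p = 0.281 in ΔNp73-labelled tumours and did not pass without ΔNp63 replicate 2 (0.0941). Tagln, a smooth muscle actin-binding protein, behaved alike in ΔNp73-labelled tumours (log2FC 1.14, adjusted p = 0.227 with all libraries and 0.0627 without ΔNp63 replicate 2). Vim encodes vimentin, an intermediate filament of mesenchymal cells that leukocytes also make, and had the highest level of all members. Its values were 413.4, 350.7 and 346.1 FPKM in the ΔNp73-labelled libraries, 212.9, 63.1 and 241.0 FPKM in the ΔNp63-labelled libraries and 122.0 and 119.9 FPKM in the controls. The ΔNp73-labelled values were above all others, and ΔNp63 replicate 2 was below both controls. Vim passed without ΔNp63 replicate 2 in ΔNp73-labelled (log2FC 1.60, SE 0.12, adjusted p = 0.000669) and ΔNp63-labelled tumours (log2FC 0.90, SE 0.13, adjusted p = 0.00512).

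**Figure D3:**
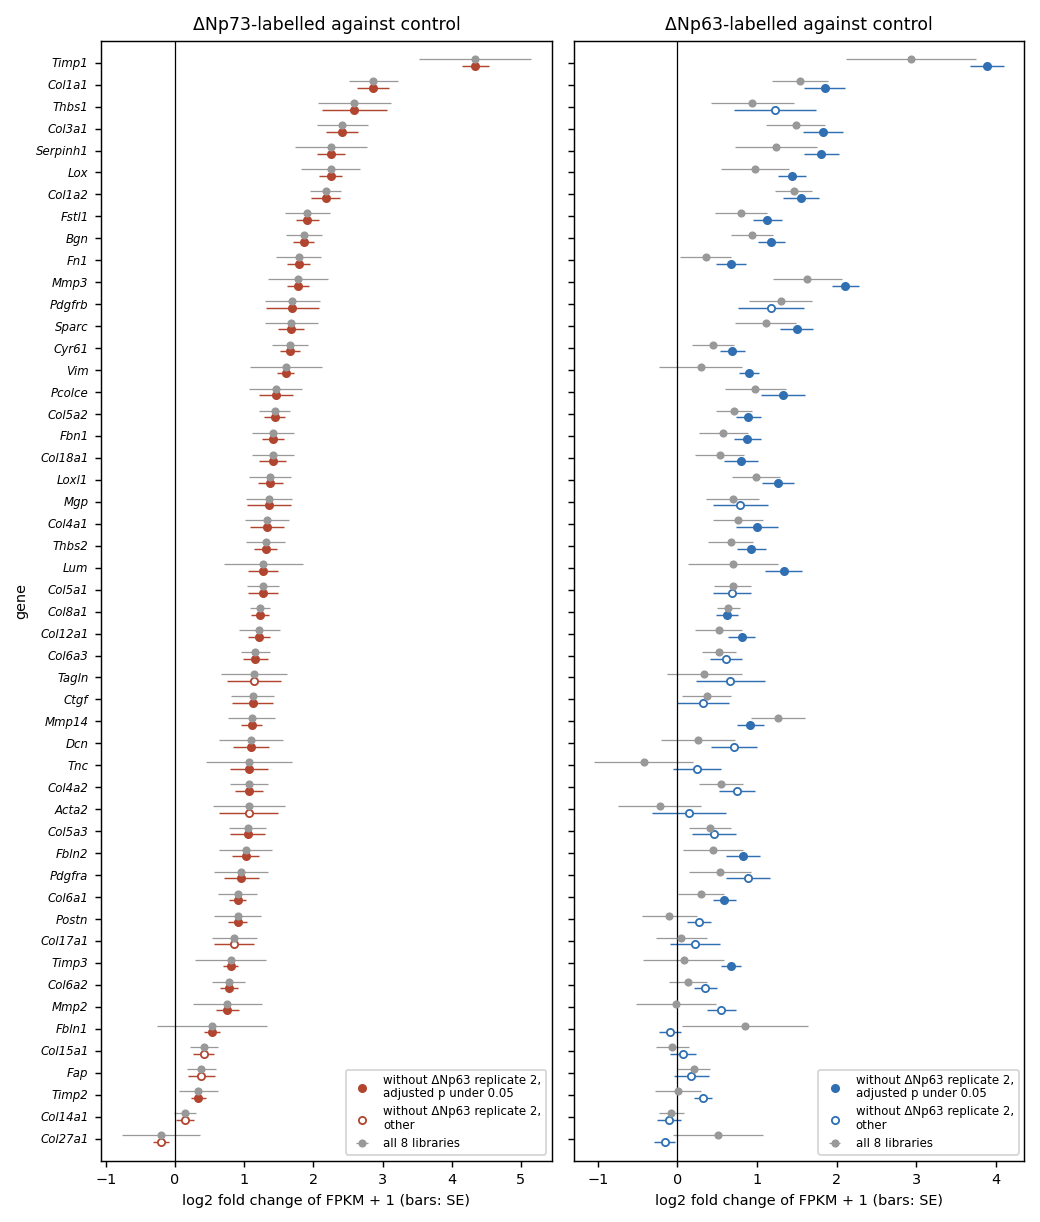
Log2 fold change of FPKM + 1 against control (horizontal axis, bars are SE) for the 50 tested members, sorted by the ΔNp73-labelled value, in ΔNp73-labelled (left) and ΔNp63-labelled tumours (right); grey points use all 8 libraries, coloured ones leave out ΔNp63 replicate 2, and filled ones have an adjusted p under 0.05. On the left 43 points are filled and 49 of 50 lie above 0, with Timp1 at 4.34, and on the right 27 are filled.

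Summed over the 51 members, the libraries held 1718, 1641 and 1497 FPKM in ΔNp73-labelled, 1156, 520.4 and 1034 FPKM in ΔNp63-labelled and 539.6 and 499.3 FPKM in control tumours. The median difference of the members from the control mean, on the log2 scale, was 1.33, 1.39 and 1.21 in ΔNp73-labelled tumours and 0.87, 0.15 and 0.71 in ΔNp63-labelled tumours. ΔNp63 replicate 2 had 27 members above both controls and 18 below both. Its median difference was 0.80 in the fibrillar collagens and -0.93 in the contractile and cytoskeletal genes. It was below both other libraries of its group in 39 of 50 members and above both in 7. The highest of the 8 libraries was a ΔNp73-labelled one for 46 members, ΔNp63 replicate 2 for 3 (Col27a1, Fbln1 and Mmp14) and another ΔNp63-labelled one for 1 (Mmp3). The lowest was a control for 29 members, ΔNp63 replicate 2 for 18 and another library for 3. No share of all genes stands beside these counts of order, so whether they are particular to the members was not tested.

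The direct comparison of ΔNp73-labelled with ΔNp63-labelled tumours involves the same virus in both groups. The members' median log2FC was 0.68, and 0.50 without ΔNp63 replicate 2, against -0.02 and -0.01 over all genes. With all libraries, 0 members passed the adjusted threshold (0.031% of all genes rose and 0.0232% fell), and the unadjusted p was under 0.05 for 27 higher members (6.11%) and 0 lower ones (4.4%). Leaving out ΔNp63 replicate 2 again gave 0 (0.0626% of all genes rose and 0.0861% fell), with 23 higher at an unadjusted p under 0.05 (8.16%) and 0 lower (7.43%). The ΔNp73-labelled libraries lay above all 3 ΔNp63-labelled ones in 29 members (10.3% of all genes) and above replicates 1 and 3 in 30 (16.0%). In 42 of 50 members the group means ran ΔNp73-labelled over ΔNp63-labelled over control, an order that 22.4% of all genes tested showed.

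Cyr61 and Fn1 were among the members with the smallest p between these groups. Cyr61 gave log2FC 1.21, SE 0.23, adjusted p = 0.345 with all libraries and log2FC 0.97, SE 0.15, adjusted p = 0.0803 without ΔNp63 replicate 2. Fn1 gave log2FC 1.43, SE 0.29, adjusted p = 0.345 and log2FC 1.11, SE 0.17, adjusted p = 0.0843 in the same settings. Col1a1 gave log2FC 1.33, SE 0.32, adjusted p = 0.369 and log2FC 1.02, SE 0.23, adjusted p = 0.138. The ranges of Timp1 overlapped between these groups with and without replicate 2 (log2FC 0.45 without it). Those of Mmp3 overlapped with all libraries, and without replicate 2 its ΔNp73-labelled values were the lower ones (log2FC -0.34). Limma's estimated array weights, which give less weight to a library that departs from the model, called 6 members higher (1.42% of all genes), with adjusted p of 0.0139 to 0.0441: Cyr61, Fn1, Col1a1, Col8a1, Postn and Vim.

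For 6 members the table holds more than 1 RefSeq entry, and the entry with the highest mean was used. The second Timp1 entry, at 51.0, 61.4 and 44.3 FPKM in ΔNp73-labelled, 42.2, 5.59 and 28.9 in ΔNp63-labelled and 1.80 and 0.759 in control libraries, had the order of groups of the first. A second Dcn entry measured 43.7, 16.3 and 18.1 FPKM in ΔNp73-labelled, 24.0, 3.77 and 24.7 in ΔNp63-labelled and 9.26 and 9.09 in control libraries. It too was above both controls in all ΔNp73-labelled libraries and below them in ΔNp63 replicate 2. With the entries of a symbol summed, none of the calls on the named members changed.

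Genes of related processes outside the 51 members were counted from fixed lists. With all libraries, 0 genes of any of these lists passed in any of the 3 comparisons. Without ΔNp63 replicate 2, 13 of 20 genes for collagen modification, secretion and cross-linking rose in ΔNp73-labelled tumours against control (16.8% of all genes). In ΔNp63-labelled tumours 9 rose (11.7%), and 0 fell in either group (16.1% and 10.8% of all genes fell). Fkbp10, a collagen prolyl isomerase of the endoplasmic reticulum, measured 4.15, 5.26 and 4.74 FPKM in the ΔNp73-labelled libraries, 4.26, 4.10 and 2.48 FPKM in the ΔNp63-labelled libraries and 1.29 and 0.818 FPKM in the controls. Loxl2 and Loxl3, further lysyl oxidases, had log2FC of 1.29 and 0.89 in ΔNp73-labelled tumours (adjusted p = 0.00217 and 0.00334 without ΔNp63 replicate 2).

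Of 21 tested genes of TGF-beta and PDGF signalling, 13 rose in ΔNp73-labelled tumours without ΔNp63 replicate 2 (16.8% of all genes). In ΔNp63-labelled tumours 8 rose (11.7%), and 0 fell in either group (16.1% and 10.8% of all genes). Eng, a co-receptor for TGF-beta, and the ligand Pdgfc had log2FC of 1.17 and 1.14 in ΔNp73-labelled tumours with all libraries, and both passed in both groups without ΔNp63 replicate 2.

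Of 17 tested matrix receptors, 13 rose in ΔNp73-labelled tumours without ΔNp63 replicate 2 (16.8% of all genes). In ΔNp63-labelled tumours 5 rose (11.7%), and 0 fell in either group (16.1% and 10.8% of all genes). Itgav, an integrin chain that binds fibronectin and vitronectin, measured 14.1, 12.6 and 12.7 FPKM in the ΔNp73-labelled libraries, 7.08, 5.502 and 9.19 FPKM in the ΔNp63-labelled libraries and 6.54 and 6.93 FPKM in the controls. Its ΔNp73-labelled values were set apart, and the ΔNp63-labelled ones lay around the controls (log2FC 0.87 in ΔNp73-labelled and 0.07 in ΔNp63-labelled tumours). Itga5, the fibronectin receptor chain, had log2FC of 0.98 and 0.41 in the same order. Sdc4, a syndecan, had log2FC of 1.06 in ΔNp73-labelled and 1.13 in ΔNp63-labelled tumours without ΔNp63 replicate 2, and passed in both groups (adjusted p = 0.00355 and 0.00564).

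Among other glycoproteins and proteoglycans, 16 of 29 rose in ΔNp73-labelled and 10 in ΔNp63-labelled tumours without ΔNp63 replicate 2, and 0 fell. Emilin2, an elastin-microfibril glycoprotein, measured 14.7, 13.1 and 9.28 FPKM in the ΔNp73-labelled libraries, 10.1, 1.33 and 6.93 FPKM in the ΔNp63-labelled libraries and 0.874 and 0.981 FPKM in the controls. It was high in 5 of the 6 libraries given Cre virus and near the controls in ΔNp63 replicate 2. Timp1 was also lowest of these 6 in that library, but at 9.10 FPKM it lay above both controls (4.31 and 3.64 FPKM). Ecm1 and Efemp2, a secreted matrix protein and a fibulin, had log2FC of 2.16 and 1.81 in ΔNp73-labelled tumours. Among other matrix proteases and inhibitors, 14 of 17 rose in ΔNp73-labelled tumours and 1, Adam12, fell, while 11 rose in ΔNp63-labelled tumours and 0 fell. Plat and Plaur, the tissue plasminogen activator and the urokinase receptor, and Ctsk, the collagen-degrading cathepsin K, had log2FC of 1.04, 1.49 and 1.05 in ΔNp73-labelled tumours. Against these counts stand 16.8% of all genes that rose in ΔNp73-labelled and 11.7% in ΔNp63-labelled tumours, and 16.1% and 10.8% that fell.

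Markers of other cells moved beside the matrix genes. The summed level of 14 fibroblast markers outside the members was 88.3 to 107.6 FPKM in ΔNp73-labelled, 34.5 to 78.2 in ΔNp63-labelled and 35.6 to 41.7 in control tumours. Pdpn and Serpinf1 made up most of this sum in ΔNp73-labelled tumours, where 9 of the 14 markers had a log2FC above 0. The median log2FC of the 14 markers was 0.51 in ΔNp73-labelled and 0.06 in ΔNp63-labelled tumours, less than for the members. Without ΔNp63 replicate 2 there were 5 of 14 called higher in ΔNp73-labelled tumours (16.8% of all genes were). Podoplanin (Pdpn), also made by lymphatic endothelium and thymic epithelium, measured 42.8, 44.3 and 30.8 FPKM in the ΔNp73-labelled libraries, 23.4, 6.12 and 18.7 FPKM in the ΔNp63-labelled libraries and 5.98 and 5.74 FPKM in the controls. The adventitial fibroblast marker Pi16 measured 3.61, 2.17 and 1.38 FPKM in the ΔNp73-labelled libraries, 2.02, 1.75 and 2.21 FPKM in the ΔNp63-labelled libraries and 3.79 and 2.45 FPKM in the controls, and Clec3b 3.80, 2.17 and 2.57 FPKM in the ΔNp73-labelled libraries, 4.17, 2.87 and 1.95 FPKM in the ΔNp63-labelled libraries and 5.76 and 4.06 FPKM in the controls. Pdpn thus followed the matrix genes, as did Serpinf1, at 21.3, 17.3 and 27.2 FPKM in ΔNp73-labelled and 6.43 and 6.69 FPKM in control libraries. Clec3b, Scara5 and Islr were below both controls in every ΔNp73-labelled library (35.7% of all genes tested were). The ΔNp73-labelled range of Pi16 overlapped that of the controls. These markers were named after their values were seen. Summed pericyte and smooth muscle markers were 57.9 to 75.3 FPKM in ΔNp73-labelled, 29.1 to 49.7 in ΔNp63-labelled and 43.3 to 46.9 in control tumours, and 2 of 8 tested ones rose in ΔNp73-labelled tumours without ΔNp63 replicate 2, against the same 16.8%.

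Macrophage markers were also higher in the tumours given Cre virus, ΔNp63 replicate 2 apart. The 12 markers summed to 1024 to 1328 FPKM in ΔNp73-labelled, 423.9 to 1133 in ΔNp63-labelled and 388.2 to 440.8 in control tumours, with a median log2FC of 1.65 in ΔNp73-labelled and 1.07 in ΔNp63-labelled tumours. When ΔNp63 replicate 2 was left out, 12 of 12 rose in both groups (16.8% of all genes rose in ΔNp73-labelled and 11.7% in ΔNp63-labelled tumours). Csf1r, the receptor that defines the lineage, measured 35.2, 36.5 and 31.0 FPKM in the ΔNp73-labelled libraries, 29.4, 11.9 and 24.7 FPKM in the ΔNp63-labelled libraries and 9.46 and 8.99 FPKM in the controls. Endothelial markers summed to 43.2 to 76.8 FPKM in ΔNp73-labelled, 37.6 to 49.0 in ΔNp63-labelled and 28.4 to 36.5 in control tumours, with 6 of 12 higher in ΔNp73-labelled tumours in that setting. None of the markers in the table was listed at 0 in all 8 libraries. The part of macrophages, fibroblasts, vessels and of the lower thymocyte markers in the matrix differences was not tested.

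**Figure D4:**
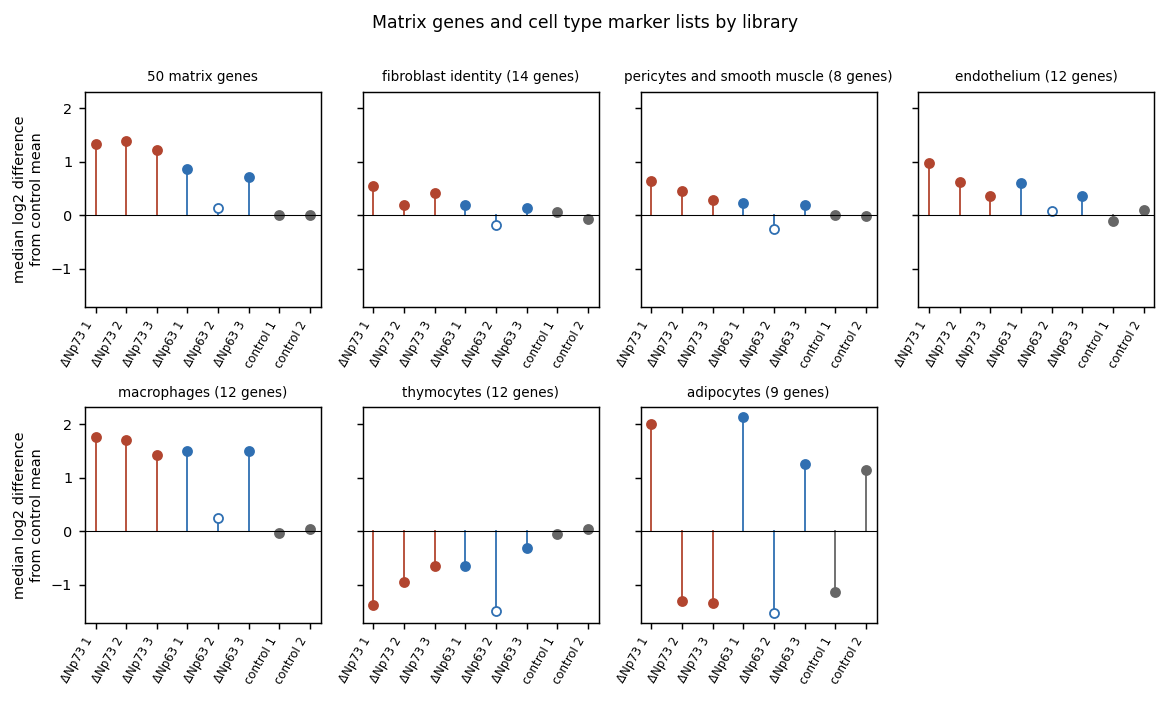
Median difference from the control mean (vertical axis, log2(FPKM + 1)) in each of the 8 libraries, for the 50 tested matrix genes and for 6 lists of cell type markers; hollow circles are ΔNp63 replicate 2. For the matrix genes the ΔNp73-labelled libraries (1.21 to 1.39) are above all others, for the macrophage markers they (1.43 to 1.76) overlap ΔNp63 replicates 1 and 3 (1.49 in both), and ΔNp63 replicate 2 is the lowest of the 6 libraries given Cre virus in both lists (0.15 and 0.25); thymocyte markers lie below the control mean in all 6 libraries given Cre virus, and adipocyte markers vary within every group.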

How the data were processed

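The authors deposited 1 table of quantile-normalised FPKM per RefSeq transcript for 8 libraries. Per the submitters' processing notes, TopHat2 2.0, Cufflinks 2.0 and the build mm9 were used. The table holds 16589 entries, and 35 symbols turned into dates were restored. Quantile normalisation gives all libraries the same distribution, so a change in total RNA cannot be seen, and the depth is unknown.

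The entry with the highest mean was kept for each symbol. Genes with at least 1 FPKM in at least 2 libraries (12921) were tested on log2(FPKM + 1), with a pseudocount of 1, in limma 3.58.1 (R 4.3.3; empirical Bayes with intensity trend, two-sided, Benjamini-Hochberg over all genes, threshold 0.05). All 8 libraries entered 1 model with 5 residual degrees of freedom. The model was also run on simulated data in which a gene had the same spread in every library. Such data cannot show the effect of a library that stands apart, as ΔNp63 replicate 2 did. Fold changes are on the log2(FPKM + 1) scale and understate those of low genes. The labels give no batch.

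Members, lists and tests were chosen with earlier results of these data known. Values in every library are given for the members called, the 8 with the highest mean, the 8 with the smallest p per comparison, the 5 with the most negative log2FC against control, and 7 fixed collagens (Col1a1, Col1a2, Col3a1, Col4a1, Col4a2, Col5a1, Col5a2). Outside the members, the 3 genes with the smallest p of each list are named, except 1 that is not reported here. A total of 16 alternatives was tried. Promoter windows come from RefSeq (GRCm38.p6).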

Additional observations from a re-analysis of the deposited data

How the results depend on the processing

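Against control, the number of members called in ΔNp73-labelled tumours was 1 with all libraries, 3 at a pseudocount of 0.1, 2 at a pseudocount of 5, 2 without the intensity trend, 43 with only these 2 groups in the model and 47 with limma's array weights (23.5% of all genes rose in that setting). Leaving out 1 library at a time gave 0 to 43, the 43 without ΔNp63 replicate 2. In ΔNp63-labelled tumours the number was 0 with all libraries, 34 with array weights (16.3% of all genes rose) and 0 to 27 with 1 library left out, the 27 again without ΔNp63 replicate 2. Between ΔNp73-labelled and ΔNp63-labelled tumours it was 6 with array weights and 0 in the other settings. The members' median log2FC against control was 1.63 at a pseudocount of 0.1 and 0.76 at 5 in ΔNp73-labelled tumours. In ΔNp63-labelled tumours it was 0.29 at a pseudocount of 5, 0.79 with array weights and 0.38 to 0.79 with 1 library left out. The members' median was above 0 in every setting run. The cause of these shifts was not tested, beyond that ΔNp63 replicate 2 widens the shared spread.

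Among the 25 named members, a few that passed no test with all libraries changed sign. For ΔNp63-labelled tumours against control, without ΔNp63 replicate 2 the log2FC was 0.15 for Acta2, 0.27 for Postn, 0.25 for Tnc and -0.16 for Col27a1, and with array weights it was 0.19, 0.23, 0.11 and -0.14 for the same genes. Without control replicate 1 it was 0.20 for Acta2, 0.054 for Col14a1 and 0.029 for Postn. With 1 library left out at a time the log2FC ranged from -0.65 to 0.20 for Acta2, from -0.21 to 0.054 for Col14a1, from -0.16 to 0.87 for Col27a1, from -0.31 to 0.27 for Postn, from -0.91 to 0.25 for Tnc and from -0.059 to 0.90 for Vim, which was negative without ΔNp63 replicate 3. For ΔNp73-labelled against ΔNp63-labelled tumours, Mmp14 was at 0.20 without ΔNp63 replicate 2 and 0.34 with array weights, and Mmp3 at -0.34 and -0.27, with ranges of -0.36 to 0.20 for Mmp14 and -0.34 to 0.43 for Mmp3 over the libraries left out. No named member changed sign in ΔNp73-labelled tumours against control in any setting. Outside the named members, leaving out ΔNp63 replicate 2 changed the sign of Fbln1, Mmp2 and Col15a1 in ΔNp63-labelled tumours against control. For Fbln1 the log2FC went from 0.85 to -0.09. Between ΔNp73-labelled and ΔNp63-labelled tumours, Fbln1 and Lum changed sign in that setting. With FPKM of at least 5 required in at least 2 libraries, 21 of the 25 named members remained to be tested. No paired analysis was possible because replicates were numbered in the order of deposition within each group, and nothing in the labels ties libraries of the same number together. Depth is unknown, so how much of the spread of low genes such as Col8a1, Col17a1 and Fap is counting error was not tested.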

Other observations

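Markers of adipocytes, the fat cells that surround and infiltrate the thymus, varied within every group. Their 9 genes summed to 2523, 211.6 and 218.9 FPKM in ΔNp73-labelled tumours, 2097, 104.1 and 1426 FPKM in ΔNp63-labelled tumours and 160.2 and 946.7 FPKM in the controls. A single library of the ΔNp73-labelled group, 2 of the ΔNp63-labelled group and 1 control were thus high. The summed matrix genes stood at 1718, 1641 and 1497 FPKM in the ΔNp73-labelled libraries. Single members differed there: Dcn was highest in replicate 1 (125.0, 63.3 and 73.8 FPKM) and Col1a1 in replicate 3 (30.9, 37.0 and 50.3 FPKM). The part of adipocytes in the levels of the matrix genes was not tested. The 7 skeletal and heart muscle markers in the table summed to 118.5 FPKM in ΔNp73-labelled replicate 1, and to 2.39 to 5.78 FPKM in the other 7 libraries.

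The 2 platelet markers in the table, of 7 on the list, summed to 71.4, 52.4 and 32.2 FPKM in ΔNp73-labelled, 99.1, 8.58 and 14.9 FPKM in ΔNp63-labelled and 4.24 and 7.93 FPKM in control tumours. Platelets carry thrombospondin (Thbs1). The 4 cartilage and bone markers in the table summed to 12.1 to 12.4 FPKM in ΔNp73-labelled, 6.70 to 12.1 in ΔNp63-labelled and 7.06 to 7.12 in control tumours. The 5 mesothelial markers summed to 7.32 to 9.77 FPKM in ΔNp73-labelled, 7.07 to 8.64 in ΔNp63-labelled and 11.3 to 12.4 in control tumours. Their part in the levels of the matrix genes was not tested.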
